A study of Mus musculus with 26 samples.

Results

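The 8 mouse pluripotent clones described here, all derived from germline stem cells (GSC), were divided into 2 sets of 4 by their own expression profiles, and the division ran across the labels of the study. The first set held iPSC[GSCneonatal]#1, iPSC[GSCneonatal]#2, iPSC[GSCadult]#2 and gPSC[GSCneonatal]#1. The second held iPSC[GSCadult]#1, gPSC[GSCneonatal]#2, gPSC[GSCadult]#1 and gPSC[GSCadult]#2. The sets were chosen by the clone means themselves, as the 4-against-4 split with the most genes past a threshold, crossing both method and origin. Every difference between the sets is therefore given as a description, with no test. Aldoc and Aldoa, which encode aldolases C and A of glycolysis, were the proposed markers. The Aldoc signal was 9.48 to 9.58 in the first set and 5.49 to 8.70 in the second on the normalised log2 scale, and the sets are called Aldoc-high and Aldoc-low clones. The 8 clones account for 16 of the 26 arrays and for 8 of the 13 lines of the series.

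The study profiled RNA on Illumina bead arrays to compare pluripotent cells made by different routes. Induced pluripotent stem cells (iPSC) are made with added reprogramming factors. Cells named gPSC, germline-derived pluripotent stem cells, come from GSC in culture without such factors. Neonatal lines carry day 10 and adult lines day 40 in the labels, and each combination of method and origin has 2 clones. The other lines were OG2 ESC (embryonic stem cells), iPSC[MEF] made from embryonic fibroblasts with a 4-factor inducible system labelled Tet-4F, GSC[neonatal], GSC[adult] and MEF (mouse embryonic fibroblasts). All 26 arrays have the strain label OG2, a mouse stock with a green fluorescent reporter under Oct4 (Pou5f1) control, so every group shares that transgene. Each line is a single clone or culture with 2 arrays. The labels call these biological replicates, but no label says whether the 2 arrays came from separate cultures.

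Glycolysis splits glucose into pyruvate, and mouse embryonic stem cells in culture rely on it together with respiration. When oxygen is short, hypoxia-inducible factors (HIF) escape degradation and switch on most glycolytic enzymes, glucose transporters and genes for blood vessel growth, collagen modification and pH control. The factors bind DNA at hypoxia response elements, whose core letters are ACGTG or GCGTG. Pluripotent cells also move between a naive state, like the early inner cell mass, and a primed state, like the epiblast after implantation, and the 2 states differ in metabolism and in Dnmt3b, Pou3f1 and related genes.

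Every clone had the core profile of a pluripotent line. Averaged over Pou5f1, Nanog, Sox2, Zfp42, Dppa5a and Esrrb, the mean log2 signal was 11.01 to 11.44 in Aldoc-high and 10.60 to 11.001 in Aldoc-low clones, and 4.55 in MEF. Germline stem cell markers averaged 5.85 to 6.45 and 5.62 to 5.98, below 7.99 and 7.76 in the parent GSC lines. Ddx4, Dazl and Id4 lay below both parent lines in every clone, whereas Etv5, at 7.02 to 8.41, lay above them (6.23 and 5.35). Gfra1 and Ret were undetected in all 8 clones, and Gfra1 was dim in the parent lines too (5.33 and 5.27). Of 6 Sertoli and Leydig markers, Amh, Sox9, Cyp17a1 and Insl3 were undetected, and Cyp11a1 was detected on 1 array of each set. Wt1 was detected on 3 of 8 Aldoc-high and on all 8 Aldoc-low arrays. Its level was 4.52 to 4.95 in Aldoc-high and 5.25 to 6.17 in Aldoc-low clones, without overlap. Between 40.7% and 46.8% of probes were detected per clone array. The 2 arrays of a clone correlated at 0.995 to 0.997 and had 0 to 10 genes at least 2-fold apart.

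By correlation, 1 clone was about as close to a line of another origin as 2 arrays of a clone are to each other. The lines are compared by means of 2 arrays and the arrays of a clone singly, so the values are not strictly alike. The means of gPSC[GSCneonatal]#2, an Aldoc-low clone, and of iPSC[MEF] correlated at 0.997 and had 11 genes at least 2-fold apart. The next closest pair of pluripotent lines, with 116, was iPSC[MEF] and iPSC[GSCadult]#1, also an Aldoc-low clone. Among those 11 genes, named after their values were seen, the largest difference was in Eif2s3y, a gene of the Y chromosome, at 7.24 in gPSC[GSCneonatal]#2 and 4.30 in iPSC[MEF]. The imprinted genes Grb10, Phlda2 and Cdkn1c were also among them, lower in gPSC[GSCneonatal]#2 by means, at -1.23, -1.12 and -1.12. The 2 lines therefore differ in a few genes and cannot be taken as independent of each other in the rest of the profile. Without gPSC[GSCneonatal]#2, 1273 genes were higher and 1207 lower in Aldoc-high clones without overlap, the glycolysis and hypoxia lists of the later paragraphs had medians of 0.59 and 0.52, and 9 and 12 of their genes were higher without overlap.

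Array quality was set beside the split. No array measure was part of the choice, but these measures come from the same arrays and intensities, so their tests are not independent of it. The share of probes detected was 45.4% ± 1.57 (SD, n = 4 clones) in Aldoc-high and 43.7% ± 1.33 in Aldoc-low clones (exact permutation test, two-sided, p = 0.143). The median background was 82.0 ± 1.56 against 84.7 ± 2.07 intensity units (exact permutation p = 0.0857). The 95th percentile of signal over background was 9.26 to 9.59 in Aldoc-high and 9.66 to 10.46 in Aldoc-low clones, without overlap. Its exact permutation p was 0.0286, the smallest that 4 against 4 allows, and 0.114 after adjustment over 4 measures. On second arrays and on first arrays alone its difference was -0.91 and -0.58. The first arrays of the 4 gPSC clones had a background of 87.5 to 88.7, and the other 12 clone arrays 79.4 to 83.8. This was not particular to gPSC clones. The first arrays of OG2 ESC, iPSC[MEF], GSC[neonatal] and GSC[adult] had 87.3, 89.4, 87.5 and 87.3. Those of iPSC[GSCneonatal]#1, iPSC[GSCneonatal]#2, iPSC[GSCadult]#1 and iPSC[GSCadult]#2 had 80.5, 79.4, 80.0 and 80.8. What these differences contribute to the expression differences was not tested.

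The promoters of the separating glycolysis and hypoxia genes are shown first, because the known binding letters of HIF can be read in some of them and not in others. Each RefSeq window (GRCm38.p6) runs from 250 bases before to 50 bases after an annotated start, 5′ to 3′ on the strand of the gene, and capitals mark ACGTG or GCGTG on either strand, so that CACGT and CACGC are the same letters read on the opposite strand. Aldoc lies on the plus strand at chr11:78322823-78323122, Pgk1 (phosphoglycerate kinase) on plus at chrX:106186850-106187149, Pgam1 (phosphoglycerate mutase) on plus at chr19:41911621-41911920, P4ha2 (a collagen prolyl hydroxylase) on plus at chr11:54100674-54100973 and Eno2 (enolase 2) on minus at chr6:124769624-124769923.
Aldoc: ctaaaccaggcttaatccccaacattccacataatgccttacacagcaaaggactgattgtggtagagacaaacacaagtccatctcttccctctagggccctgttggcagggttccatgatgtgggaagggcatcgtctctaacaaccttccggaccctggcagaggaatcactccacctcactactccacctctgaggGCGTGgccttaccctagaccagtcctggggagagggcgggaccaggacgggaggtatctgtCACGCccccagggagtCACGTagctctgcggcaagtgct
Pgk1: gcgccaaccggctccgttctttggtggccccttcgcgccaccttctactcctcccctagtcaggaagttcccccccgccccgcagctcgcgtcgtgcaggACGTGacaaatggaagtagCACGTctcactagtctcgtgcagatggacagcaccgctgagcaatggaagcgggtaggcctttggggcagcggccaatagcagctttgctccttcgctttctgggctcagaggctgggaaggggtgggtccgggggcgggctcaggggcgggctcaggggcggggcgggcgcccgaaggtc
Pgam1: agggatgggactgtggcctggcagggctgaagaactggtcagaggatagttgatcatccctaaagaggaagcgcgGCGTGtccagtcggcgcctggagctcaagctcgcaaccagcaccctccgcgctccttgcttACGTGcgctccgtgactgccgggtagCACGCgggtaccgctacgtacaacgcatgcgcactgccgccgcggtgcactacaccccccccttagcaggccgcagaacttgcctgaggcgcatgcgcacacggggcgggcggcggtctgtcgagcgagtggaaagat
P4ha2: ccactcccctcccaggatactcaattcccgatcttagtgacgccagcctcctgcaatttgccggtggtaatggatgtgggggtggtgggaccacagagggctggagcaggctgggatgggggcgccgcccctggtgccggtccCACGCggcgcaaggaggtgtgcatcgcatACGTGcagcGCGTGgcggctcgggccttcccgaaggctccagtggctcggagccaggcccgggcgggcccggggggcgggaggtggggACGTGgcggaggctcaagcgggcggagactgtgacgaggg
Eno2: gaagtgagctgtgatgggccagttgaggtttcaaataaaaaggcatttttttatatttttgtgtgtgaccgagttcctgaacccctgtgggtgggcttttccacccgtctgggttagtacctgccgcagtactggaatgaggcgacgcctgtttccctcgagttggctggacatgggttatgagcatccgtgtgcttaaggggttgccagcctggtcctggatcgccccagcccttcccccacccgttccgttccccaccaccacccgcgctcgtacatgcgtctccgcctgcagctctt

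ACGTG stood in the windows of Aldoc, Pgk1, Pgam1 and P4ha2, and neither motif stood in that of Eno2. Among the 21 glycolysis and hypoxia genes that separated the sets, 19 had a window (Ndrg1 and Plod2 had none in the table), and taking the first listed window of each gene 9 (47.4%) held ACGTG and 11 (57.9%) held either motif. Both shares are descriptions of the letters in these windows. Some genes had further windows, and those of Hk1, Aldoa, Vegfa, Mxi1 and Ak4 held ACGTG although their first listed windows did not. The shares that follow also take the first listed window of each gene. In the whole lists, 9 of 18 glycolysis genes and 15 of 28 hypoxia genes held ACGTG. The share was 19.7% over all 27025 promoters in the table and 25.9% over the genes measured here. Either motif stood in 43.8% of all promoters and in 62.9% of the genes measured, more than the 57.9% of the separating members. Among all genes that separated the sets, ACGTG stood in 27.8% of those higher in Aldoc-high and 26.7% of those higher in Aldoc-low clones. Either motif stood in 65.8% and 64.9%. Both motif shares were close to those of the genes measured in both directions.

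Of 9840 genes measured, 1213 had all 4 Aldoc-high clone means above all 4 Aldoc-low means, which is 12.3%, and 1153 (11.7%) had the opposite order. In the same contrast limma called 1638 genes (16.6%), 854 higher and 784 lower in Aldoc-high clones, and this count is what singled the split out. It depended on single clones. It was 91 without gPSC[GSCneonatal]#2, and 663, 679, 705, 865 and 1045 without iPSC[GSCneonatal]#1, iPSC[GSCadult]#1, gPSC[GSCneonatal]#1, iPSC[GSCneonatal]#2 and gPSC[GSCadult]#2 in turn. It was 387 without iPSC[GSCneonatal]#1 and gPSC[GSCadult]#2 together, 1851 without gPSC[GSCadult]#1 and 0 once method and origin were in the model. Without gPSC[GSCadult]#1 the number of genes higher in Aldoc-high clones without overlap was 1848.

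The clones did not form 2 separate blocks. Across genes, Pearson's r was 0.965 to 0.988 within the Aldoc-high set, 0.946 to 0.987 within the Aldoc-low set and 0.897 to 0.982 between them, so the ranges overlap. The lowest r, 0.897, joined iPSC[GSCneonatal]#1 and gPSC[GSCadult]#2, the ends of the range. gPSC[GSCadult]#1 correlated at 0.981 with iPSC[GSCadult]#2 of the other set and at 0.946 with its sister gPSC[GSCadult]#2 of its own. The median difference lay between -0.04 and 0.07 on every chromosome.

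Of 19 measured enzymes of glycolysis and glucose transporters, in a 22-gene list, 9 separated the sets without overlap and all 9 were higher in Aldoc-high clones, against 12.3% of all genes in that direction. The rule used this contrast, so nothing is read from that difference, here or for the lists that follow. The median difference of the list was 0.65 on the log2 scale, and that of all genes 0.01. The mean level of the list was 10.32, 9.97, 9.99 and 10.24 in iPSC[GSCneonatal]#1, iPSC[GSCneonatal]#2, iPSC[GSCadult]#2 and gPSC[GSCneonatal]#1. It was 9.54, 9.29, 9.80 and 8.75 in iPSC[GSCadult]#1, gPSC[GSCneonatal]#2, gPSC[GSCadult]#1 and gPSC[GSCadult]#2. The gap between the lowest of the first set and the highest of the second, gPSC[GSCadult]#1, was small beside the spread of the Aldoc-low clones. In bulk RNA, fewer cells with a program and less of it per cell cannot be told apart.

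Aldoc was 9.57, 9.58, 9.48 and 9.55 in the Aldoc-high clones, in the order just given, and 7.63, 6.90, 8.70 and 5.49 in the Aldoc-low clones. The first 4 clones were nearly level, and the other set spanned more than 3 log2 units with gPSC[GSCadult]#2 lowest. The set means differed 5.15-fold. Aldoa, the aldolase of muscle and most proliferating cells, was 13.24, 13.04, 12.86 and 13.03 against 12.18, 11.73, 12.65 and 10.97, and the means differed 2.23-fold. Again gPSC[GSCadult]#1 came closest to the Aldoc-high clones and gPSC[GSCadult]#2 was lowest.

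**Figure D1:**
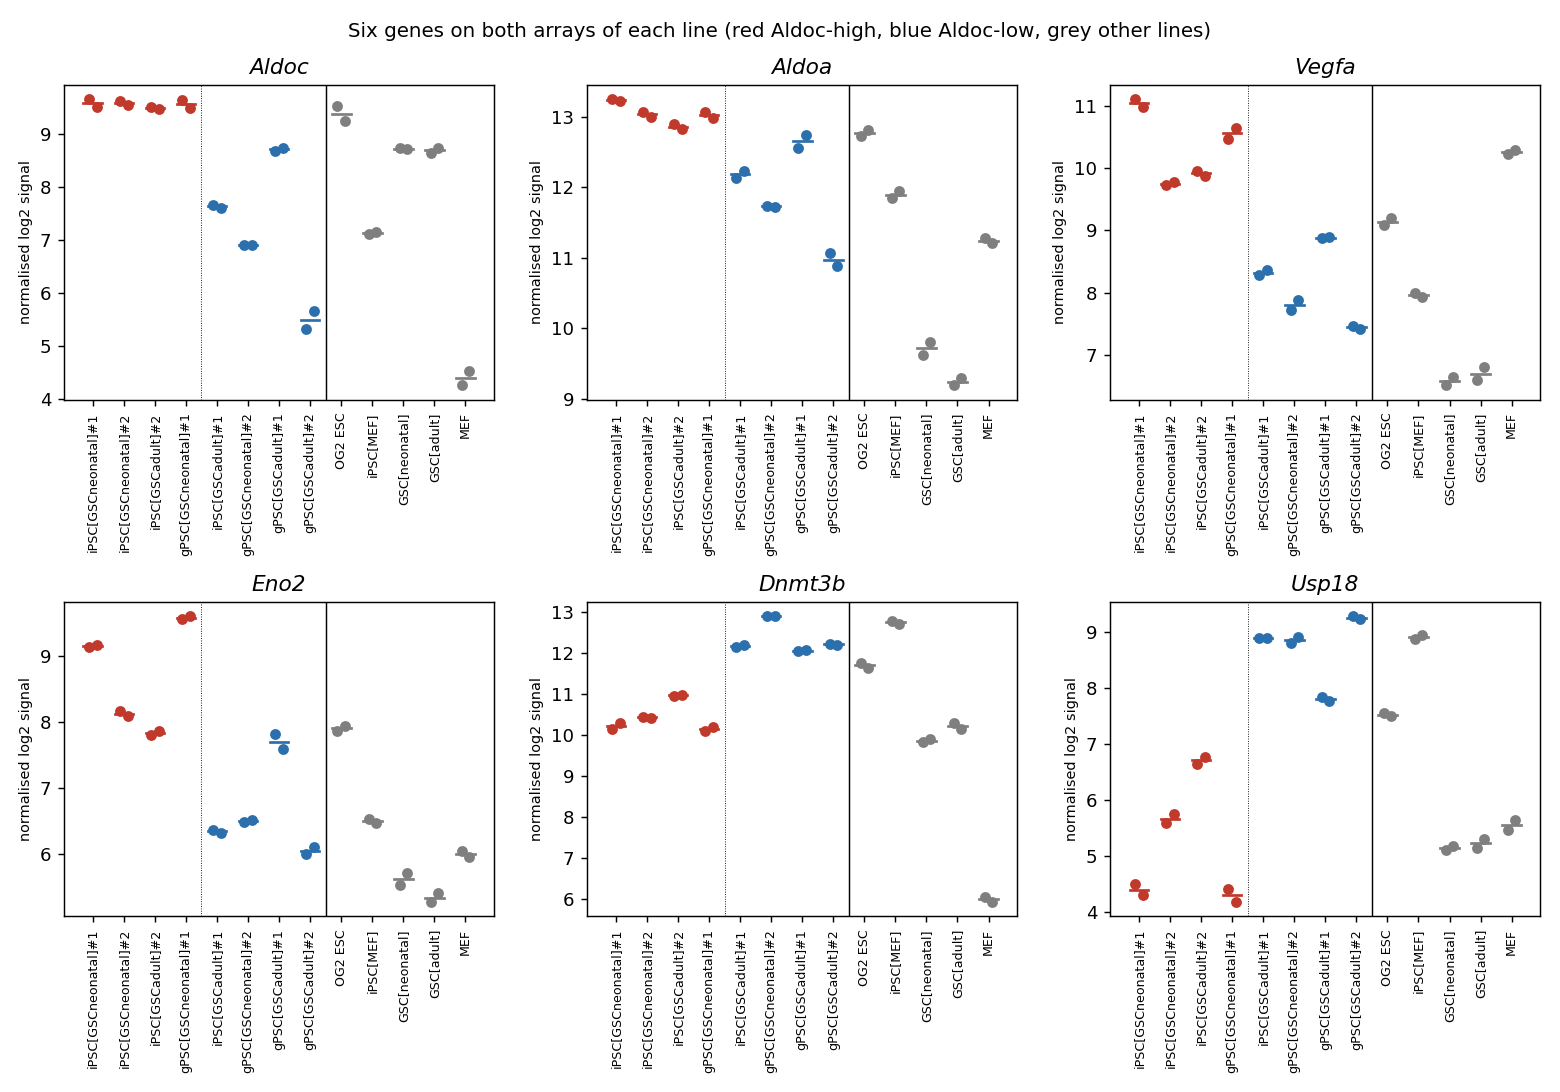
Normalised log2 signal of Aldoc, Aldoa, Vegfa, Eno2, Dnmt3b and Usp18 on both arrays of each of the 13 lines. Points are arrays and bars their mean, with Aldoc-high clones in red, Aldoc-low clones in blue and the other lines in grey. Aldoc lies at 9.48 to 9.58 in the red clones and from 5.49 to 8.70 in the blue ones, and the arrays of a line lie close together.

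Entry into the pathway was covered by Hk1 (hexokinase 1), which was 6.99 to 7.56 in Aldoc-high and 5.93 to 6.25 in Aldoc-low clones (2.34-fold). Pfkm, a subunit of phosphofructokinase, was 9.95 to 10.33 against 9.42 to 9.70. Below the aldolases, Tpi1 (triosephosphate isomerase) was 12.65 to 13.01 against 11.12 to 12.53. These genes kept the clones apart, although for Tpi1 gPSC[GSCadult]#1, at 12.53, lay close to iPSC[GSCadult]#2, at 12.65. Pgk1 was 5.55 to 6.003 against 4.86 to 5.26 and was detected on only 5 of 8 Aldoc-low arrays. Pgam1 and Pgam2, the 2 phosphoglycerate mutases, differed by 0.30 and 0.83. Eno2, the neuron-type enolase, was 9.15, 8.12, 7.83 and 9.57 against 6.34, 6.50, 7.70 and 6.05, a 4.06-fold difference of means. It was highest in gPSC[GSCneonatal]#1 and iPSC[GSCneonatal]#1.

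The other 10 glycolysis genes overlapped between the sets. Among them Pfkp and Pfkl, phosphofructokinase subunits, had mean differences of 1.25 and 0.98, Slc2a3 and Slc2a1, glucose transporters, 0.65 and 0.60, and Hk2 0.38. Ldha (lactate dehydrogenase) and Pkm (pyruvate kinase), the last steps towards lactate, differed by 0.32 and 0.30, Gapdh by 0.05 and Eno3 by 0.01. For each of these 10 genes except Ldha, gPSC[GSCadult]#1 stood above the lowest Aldoc-high clone. So did iPSC[GSCadult]#1 for Slc2a1, Slc2a3, Hk2, Ldha, Eno3 and Slc16a3.

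Of 35 measured genes of the hypoxia response outside glycolysis, in a 40-gene list, 12 were higher in Aldoc-high clones without overlap and 0 lower, against 12.3% and 11.7% of all genes. The median difference was 0.54, and the mean level of the list was 7.74 to 8.16 against 7.06 to 7.65. Without gPSC[GSCadult]#1 the number was 19. Without background correction of the signals the median was 0.28. Vegfa, the main growth factor for blood vessels, was 11.04, 9.75, 9.92 and 10.56 in the Aldoc-high clones and 8.32, 7.80, 8.88 and 7.44 in the Aldoc-low clones, a 4.62-fold difference of means. iPSC[GSCneonatal]#1 and gPSC[GSCneonatal]#1 were highest, and no Aldoc-low clone reached an Aldoc-high one. A further probe of Vegfa gave a difference of 1.91.

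Ndrg1, a stress-responsive gene commonly used as a hypoxia marker, was 11.46, 9.53, 9.29 and 10.25 against 8.35, 8.27, 9.17 and 6.96. The nearest clones of the 2 sets, iPSC[GSCadult]#2 and gPSC[GSCadult]#1, lay close together. Ak4, an adenylate kinase of mitochondria, was 7.76 to 9.94 against 6.20 to 7.39. The collagen-modifying enzymes P4ha1, P4ha2 and Plod2 differed by 1.58, 1.30 and 1.004. Car9, a carbonic anhydrase at the cell surface that acts in pH control, was 5.63 to 6.57 against 4.55 to 5.51 and was detected on 2 of 8 Aldoc-low arrays. Mxi1, a MAX-binding repressor, differed by 0.76, Gys1 (glycogen synthase) by 0.51 and Pfkfb4, which sets the level of an activator of glycolysis, by 0.36. Higd1a and Selenbp2 separated the sets by 0.30 and 0.24, but no Aldoc-low array detected either, and no fold is given.

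The 23 hypoxia genes whose sets overlapped included strong and absent differences. Bhlhe40, a transcription factor induced in hypoxia, differed by 1.32, Egln3, an oxygen-sensing hydroxylase that acts on HIF, by 1.13, and Ddit4, an inhibitor of mTORC1, by 0.74. Pdk1, which holds pyruvate back from mitochondria, differed by 0.10 and Mif by 0.03. Hmox1, Lox, Stc2 and Narf were lower in Aldoc-high clones by means, at -0.36, -0.24, -0.19 and -0.15. Bnip3, Ankrd37, Ero1a, Gbe1 and Rbpj were not measured. In all, 31 of 35 differences were above 0, against 50.7% of all genes.

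**Figure D2:**
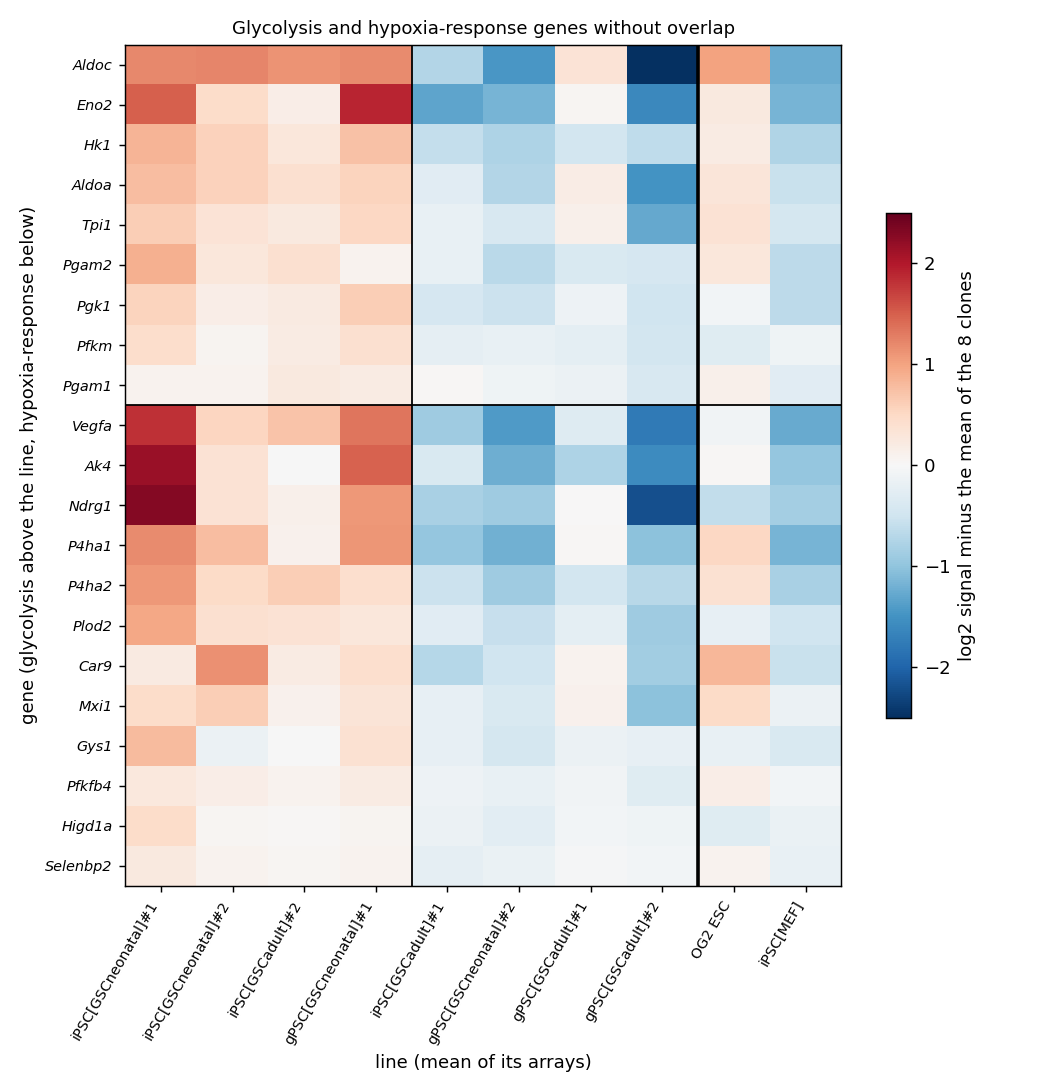
Log2 signal of the 21 glycolysis and hypoxia-response genes without overlap in the 8 clones, OG2 ESC and iPSC[MEF], each shown as the difference from the mean of the 8 clones (colour scale from -2.5 to 2.5). The thin vertical line parts Aldoc-high from Aldoc-low clones. Aldoc-low columns are blue for most genes, gPSC[GSCadult]#1 is palest among them, and iPSC[MEF] resembles the Aldoc-low columns.

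Of 32 measured subunits of oxidative phosphorylation, 3 were higher and 3 lower in Aldoc-high clones without overlap, near the 12.3% and 11.7% of all genes, and the median difference was 0.03 (0.0007 without gPSC[GSCneonatal]#2). Sdhc, a subunit of succinate dehydrogenase, was 10.39 to 10.99 against 10.00 to 10.31. Ndufb10 and Ndufa5, subunits of complex I, were 7.06 to 7.79 against 7.91 to 8.05 and 9.76 to 10.13 against 10.22 to 10.67. The list mean was 10.58 to 10.65 in Aldoc-high and 10.55 to 10.67 in Aldoc-low clones, so the sets overlapped.

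The other metabolic lists are likewise set against 12.3% of all genes higher and 11.7% lower without overlap. Serine, threonine and one-carbon metabolism had 0 of 12 genes higher and 3 lower, with a median of -0.38. Its separating genes Gart (purine synthesis), Shmt1 (a serine hydroxymethyltransferase) and Tyms (thymidylate synthesis) differed by -0.67, -0.65 and -0.63. Cholesterol synthesis had 5 of 18 higher and 0 lower, with a median of 0.25 that was 0.14 without gPSC[GSCadult]#2. Stard4, a sterol carrier, differed by 1.17, Srebf2, the transcription factor that drives the pathway, by 0.56, Insig1 by 0.54 and Hmgcs1 by 0.48. Genes of the ATF4 and amino acid response were 1 of 20 higher and 4 lower, with a median of -0.07. Slc7a3, a transporter of arginine and lysine, was 7.73 to 10.53 against 11.002 to 11.16, and Ddit3, a stress-induced transcription factor, 7.16 to 8.94 against 6.31 to 7.003.

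Among the core pluripotency factors Nanog separated the sets and the others did not. Pou5f1 differed by -0.05, Sox2 by 0.46 and Klf4 by 0.52, each with overlapping sets. Nanog was 11.68, 11.95, 12.04 and 11.94 in the Aldoc-high clones and 11.37, 10.94, 11.50 and 10.79 in the Aldoc-low clones, a 1.68-fold difference without overlap. Zfp42 (Rex1), a naive marker, was 9.02 to 9.23 against 7.86 to 8.35, and Tcl1, an Akt coactivator, 9.58 to 10.54 against 8.21 to 9.15. Of 27 measured genes listed here as naive, 5 were higher and 5 lower without overlap, against 12.3% and 11.7% of all genes. The median was 0.36. Those lower included Gbx2, at 5.47 to 7.59 against 8.54 to 8.88, and the RNA-binding protein gene Lin28a, at 6.77 to 8.17 against 8.65 to 9.35.

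Of 14 measured genes of the primed epiblast, 6 were lower in Aldoc-high clones without overlap and 0 higher, against 11.7% and 12.3% of all genes, and the median difference was -0.99 (-0.63 without iPSC[GSCneonatal]#1, -0.49 without background correction, -0.45 without the detection filter and -1.37 in the authors' normalised matrix). Dnmt3b, a de novo DNA methyltransferase, was 10.22, 10.43, 10.97 and 10.14 in the Aldoc-high and 12.18, 12.90, 12.06 and 12.21 in the Aldoc-low clones, a 3.73-fold difference of means. Both sets were compact, and the gap between them exceeded the spread within each. Pou3f1 (Oct6) was 6.49 to 7.32 against 8.28 to 9.22. Fgf8, a growth factor of the epiblast, was 4.31 to 5.02 against 5.77 to 7.96 and was detected on 2 of 8 Aldoc-high arrays. Lefty1, a Nodal target and inhibitor, was 5.15, 9.93, 9.72 and 6.66 against 10.42, 11.49, 10.94 and 9.99. Its lowest clones were iPSC[GSCneonatal]#1 and gPSC[GSCneonatal]#1, and the other Aldoc-high clones lay just under the Aldoc-low range. The Lefty1 difference of -2.85 was -1.94 without iPSC[GSCneonatal]#1 and -3.54 without iPSC[GSCneonatal]#2.

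Of 19 targets of Nodal, Wnt and BMP signalling, 6 were lower in Aldoc-high clones and 1 higher without overlap (median -0.35), against 11.7% and 12.3% of all genes. Sp5 and Notum, Wnt targets, differed by -1.63 and -1.52 and Id3, a BMP target, by -1.40. Of 15 feedback genes of FGF and ERK signalling 4 were lower and 0 higher without overlap (median -0.20), among them Ccnd1 (cyclin D1) at -1.36 and Spred1, an ERK pathway inhibitor, at -0.98. The largest difference of all was in Trh, the gene of thyrotropin-releasing hormone. It was 5.33, 8.08, 10.17 and 6.64 in the Aldoc-high clones and 12.19, 11.94, 11.26 and 11.36 in the Aldoc-low clones, a 17.5-fold difference of means. The Aldoc-high clones spread over almost 5 log2 units, with iPSC[GSCadult]#2 nearest to the other set. The log2 difference of -4.13 was -3.39 without iPSC[GSCneonatal]#1 and -5.001 without iPSC[GSCadult]#2.

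Of 22 measured interferon-response genes, 12 were lower in Aldoc-high clones without overlap and 0 higher, against 11.7% and 12.3% of all genes, and the median was -0.73 (-1.63 in the authors' normalised matrix and -0.38 without background correction). The list mean was 5.37 to 5.98 against 6.37 to 7.65, highest in gPSC[GSCadult]#2. Usp18, which removes ISG15 from proteins and dampens the response, was 4.40, 5.67, 6.71 and 4.30 against 8.89, 8.86, 7.81 and 9.26. It was detected on 4 of 8 Aldoc-high and on all 8 Aldoc-low arrays. Oasl2, Ifit3 and Isg15, antiviral genes, differed by -3.24, -2.87 and -2.72. Further probes differed by less, by -0.88 for Oasl2, by -1.45 and -1.56 for Ifit3 and by -2.06 for Usp18, whose shown probe gave -3.43. Without gPSC[GSCadult]#2 the differences of Ifit3 and Isg15 were -2.02 and -1.99, and without gPSC[GSCadult]#1 they were -3.496 and -3.36. In the parent lines Usp18 was 5.14 and 5.23, near the Aldoc-high level, whereas Oasl2 was 10.19 and 10.61, above every clone.

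Several of the 15 largest differences in favour of Aldoc-low clones were in genes of secreted proteins, which form no list fixed here. Lcn2 (lipocalin 2, an iron-withholding protein) was 5.29, 6.85, 6.52 and 7.21 in the Aldoc-high and 9.30, 10.89, 8.35 and 13.14 in the Aldoc-low clones, a 15.5-fold difference of means. Its log2 difference of -3.95 was -3.05 without gPSC[GSCadult]#2 and -4.64 without gPSC[GSCadult]#1. The Aldoc-low clones kept one order across this group, with gPSC[GSCadult]#2 highest, gPSC[GSCneonatal]#2 next, then iPSC[GSCadult]#1 and gPSC[GSCadult]#1. That order held for Hp (haptoglobin) at 10.83, 8.54, 7.29 and 6.10, for Saa3 (serum amyloid A3) at 12.85, 10.70, 9.17 and 8.21, and for the collagenase gene Mmp13 at 11.48, 9.59, 8.14 and 7.57. Mmp3, the chemokine gene Cxcl1, Mgp (matrix Gla protein) and Lgals3bp differed by -3.43, -2.86, -3.12 and -2.80. Without gPSC[GSCadult]#2 the differences of Hp, Saa3, Mmp13, Cxcl1, Mgp and Lgals3bp were -2.51, -2.08, -2.57, -2.12, -2.36 and -2.11 (with all clones -3.39, -2.96 and -3.33 for Hp, Saa3 and Mmp13). That of Mmp3 was -2.74 without iPSC[GSCneonatal]#1. A further probe of Mmp13 gave -1.56. Cxcl5 was not detected on any Aldoc-high array and was at least 7.40-fold higher in Aldoc-low clones. For such bounds each array's lowest detected signal stands in for the dim probe unless the probe itself is brighter. Of the 15 largest differences in this direction, 13 had their highest clone in gPSC[GSCadult]#2.

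Of 33 fibroblast and matrix genes 5 were lower and 1 higher in Aldoc-high clones without overlap, near the 11.7% of all genes lower, with a median of -0.56 that was -0.19 without gPSC[GSCadult]#2. The mean over 8 fibroblast markers was 4.92 to 6.62 in Aldoc-high and 6.26 to 8.74 in Aldoc-low clones, overlapping, and 8.94 in MEF. In gPSC[GSCadult]#2 the collagen genes Col1a1 and Col3a1 were 9.09 and 9.59, below 12.23 and 10.37 in MEF, while the proteoglycan genes Dcn and Lum were 11.68 and 11.21, above 7.30 and 5.21 in MEF. Lcn2, Saa3 and Hp were 4.27, 4.61 and 4.29 in MEF, below every Aldoc-low clone. Mmp3, Mmp13, Cxcl1 and Lgals3bp, at 6.83, 7.05, 7.62 and 6.87 in MEF, also lay below every Aldoc-low clone. Mgp and Cxcl5 did not. They were 9.35 and 6.82 in MEF and 8.60 and 5.91 in gPSC[GSCadult]#1. What fibroblast RNA contributes to the differences between the sets was not tested. Without iPSC[GSCneonatal]#1 and gPSC[GSCadult]#2 together, 9 glycolysis and 15 hypoxia genes were higher in Aldoc-high clones without overlap, with list medians of 0.44 and 0.34.

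Keratins of simple epithelium separated the sets. Krt18 was 10.90, 9.08, 7.03 and 8.57 against 6.40, 6.38, 5.95 and 5.34, a 7.34-fold difference of means, and its partner Krt8 was 11.80, 9.89, 8.22 and 9.58 against 7.66, 7.85, 6.95 and 6.65. iPSC[GSCneonatal]#1 was highest for both and iPSC[GSCadult]#2 lay just above the Aldoc-low clones. The log2 differences of Krt18 and Krt8, 2.88 and 2.59, were 2.21 and 1.95 without iPSC[GSCneonatal]#1 and 3.497 and 3.14 without iPSC[GSCadult]#2. Krt7 differed by 1.91, and Krt19, undetected on all Aldoc-low arrays, was at least 2.57-fold higher. Of 19 trophoblast and epithelium genes 7 were higher and 0 lower without overlap, against 12.3% and 11.7% of all genes, with a median of 0.61 that was 0.35 without iPSC[GSCneonatal]#1. The trophoblast markers Cdx2, Elf5, Gata3 and Krt7 averaged 4.79 to 6.52 against 4.56 to 4.70. Elf5 was undetected in every clone, and Gata3 reached 7.64 in iPSC[GSCneonatal]#1 and 4.58 to 5.45 in the other Aldoc-high clones. The 6 primitive endoderm markers averaged 4.87 to 5.55 against 4.59 to 5.02, overlapping. Gata4, Afp and Ttr were undetected in every clone. Gata6 was 8.37, 6.59, 7.61 and 7.55 against 6.66, 5.35, 5.45 and 5.92. Sox17 and Sox7 were highest in iPSC[GSCadult]#2, at 6.06 and 6.45. What trophoblast-like or endoderm-like cells contribute was not tested.

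Other large differences in that direction were spread over many functions. Hrc, a calcium-binding protein of the sarcoplasmic reticulum, was 6.80 to 8.07 against 4.29 to 5.03 and was detected on 1 of 8 Aldoc-low arrays. Fabp3, a fatty acid-binding protein of heart and muscle, was 11.79 to 12.50 against 9.10 to 10.73, and Pygl, the liver glycogen phosphorylase, 7.41 to 9.65 against 5.69 to 6.15. Rgcc, a cell cycle regulator, differed by 2.59, the cytochrome P450 gene Cyp2s1 by 2.63 and Eps8l2, an actin regulator, by 2.36, or 0.45 on a further probe. Alpk3, Tle6 and Wnt7b differed by 2.23, 2.09 and 2.06, the last by 0.48 on a further probe, and Alox12b, undetected on all Aldoc-low arrays, was at least 3.07-fold higher. Espn, an actin-bundling protein gene, differed by 2.17 on the probe shown and by 1.11 and -0.09 on further probes. iPSC[GSCneonatal]#1 was the highest clone for 14 of the 15 largest differences in this direction.

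Some germline genes were highest in iPSC[GSCneonatal]#1 and gPSC[GSCneonatal]#1. Of 19 genes of germ cells, piRNA and meiosis 3 were higher and 0 lower in Aldoc-high clones without overlap, near the 12.3% of all genes higher, and the median of 0.67 was 0.36 without iPSC[GSCneonatal]#1. Dazl, an RNA-binding protein of germ cells, was 10.80 and 9.94 in those 2 clones, and 6.61 and 6.07 in the other Aldoc-high clones. It was 5.93 to 7.55 in the Aldoc-low clones, so the sets overlapped. Ddx4 (Vasa) was 6.47, 5.24, 5.41 and 5.92 against 5.03, 4.94, 5.20 and 4.47. Its highest clones were the same 2, and both parent GSC lines, at 7.87 and 8.14, lay above them.

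The remaining lists had medians between -0.42 and 0.41, and their counts stand against 12.3% of all genes higher and 11.7% lower without overlap. Paternally expressed imprinted genes were 0 of 11 higher and 2 lower (median -0.42, and -0.07 without gPSC[GSCneonatal]#1 and -0.11 without gPSC[GSCadult]#2), with Mest at -1.31. Maternally expressed ones were 0 of 14 higher and 2 lower without overlap. The lower genes were Grb10 at -1.13 and Dcn, which is also in the fibroblast and matrix list, at -2.67. Even so, 10 of the 14 differences were above 0 and the median was 0.22 (0.10 without iPSC[GSCneonatal]#2). The p53 list had 6 of 20 higher and 0 lower, led by Gadd45b at 1.30 and Rrm2b, a ribonucleotide reductase subunit, at 1.12. Immediate-early and heat shock genes were 4 higher and 2 lower of 22, with Fos at 1.44. Genes of DNA methylation were 1 higher and 3 lower of 11. The counts were 2 and 2 of 26 for the cell cycle, 5 and 2 of 29 for ribosomal proteins, 2 and 1 of 20 for mesoderm and endoderm, 0 and 2 of 14 for neural genes, 1 and 2 of 18 for spermatogonial stem cells, 1 and 0 of 13 for the two-cell-like state and 1 and 1 of 12 for testis somatic cells. The median of the cell cycle list was -0.08 and turned to 0.08 without iPSC[GSCneonatal]#1.

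**Figure D3:**
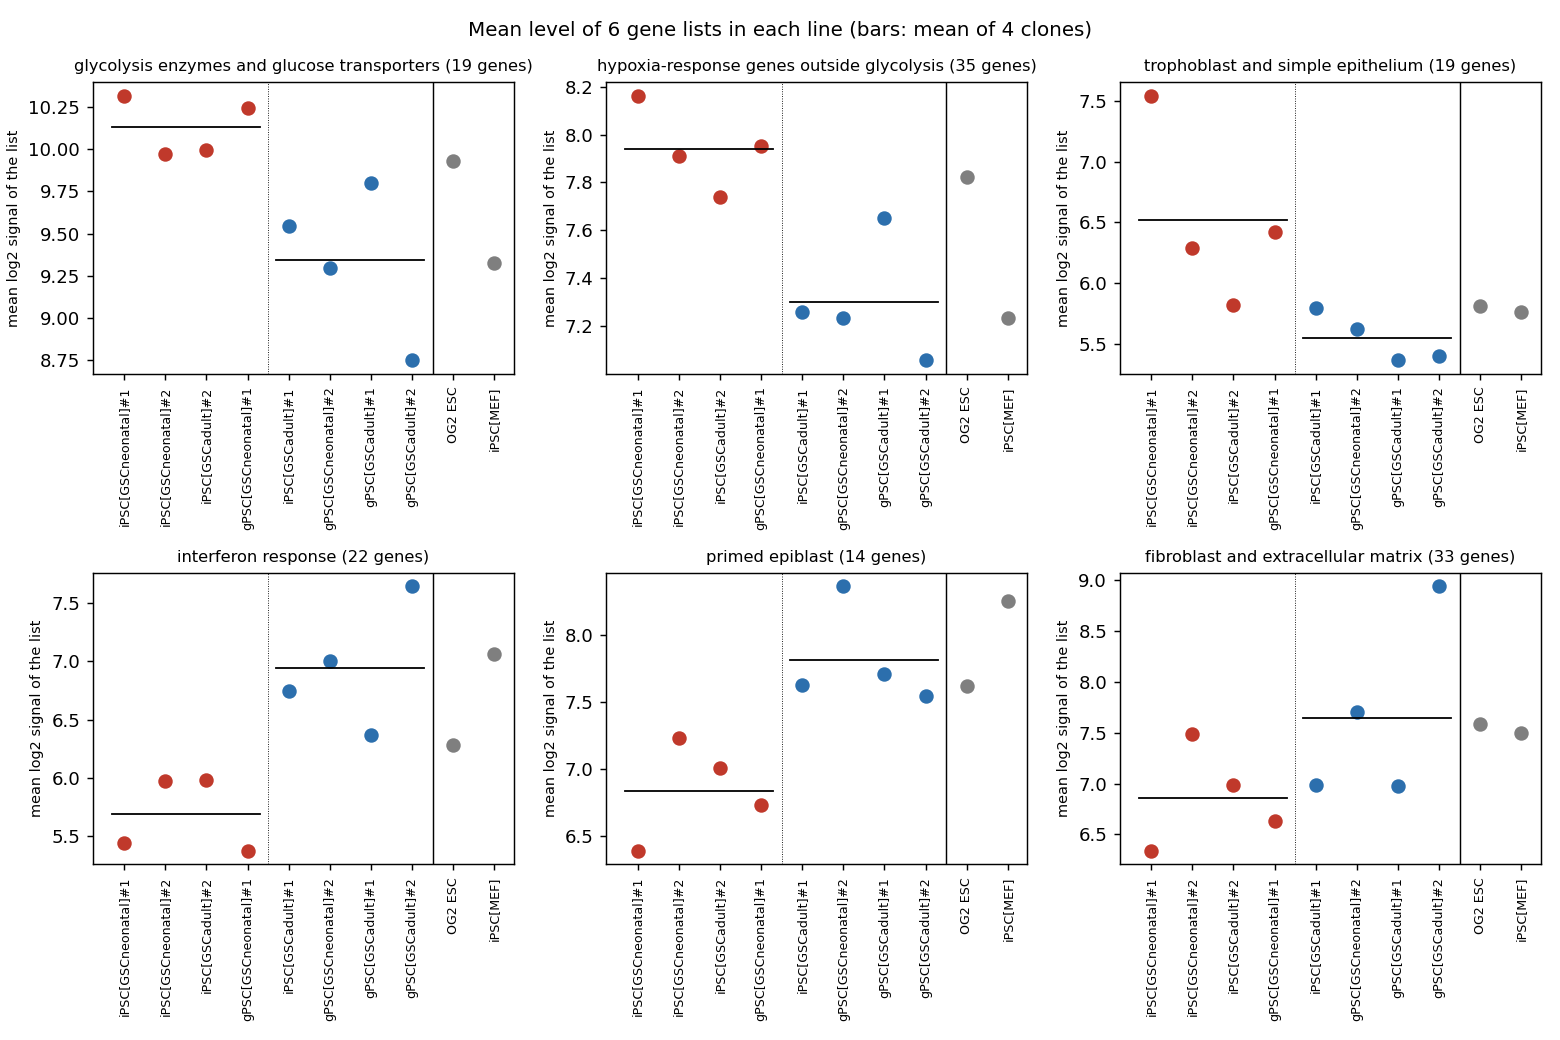
Mean log2 signal of 6 gene lists in the 8 clones, OG2 ESC and iPSC[MEF]. Points are lines (red Aldoc-high, blue Aldoc-low, grey other) and horizontal bars the mean of 4 clones. The sets do not overlap for glycolysis, hypoxia response, interferon response and primed epiblast, nearly touch for trophoblast and epithelium (5.82 and 5.80), and overlap for fibroblast and matrix genes.

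Sister clones share method, origin and parent line, so they show how much of the range arises within a single label group. The clones gPSC[GSCneonatal]#1 and gPSC[GSCneonatal]#2 fell into opposite sets and had 1025 genes at least 2-fold apart (10.4%). The pair iPSC[GSCadult]#2 and iPSC[GSCadult]#1, also in opposite sets, had 233 (2.37%). Sisters in one set were not closer as a rule. iPSC[GSCneonatal]#1 and iPSC[GSCneonatal]#2 had 471 (4.79%), and gPSC[GSCadult]#1 and gPSC[GSCadult]#2 had 934 (9.49%).

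Glycolysis and hypoxia genes differed within sister pairs whether or not the split parted them. Between gPSC[GSCadult]#1 and gPSC[GSCadult]#2, both Aldoc-low, Aldoc differed by 3.22 and the glycolysis list by a median of 1.07, more than the 2.65 and 0.77 between gPSC[GSCneonatal]#1 and gPSC[GSCneonatal]#2. Of 54 measured members of both lists 19 were at least 2-fold higher in gPSC[GSCadult]#1 and 1 lower, against 3.12% of all genes at least 2-fold higher. Between iPSC[GSCneonatal]#1 and iPSC[GSCneonatal]#2, both Aldoc-high, Aldoc differed by -0.01 and the glycolysis list by a median of 0.29, and 6 members were at least 2-fold higher and 1 lower, against 2.66% of all genes. The pair iPSC[GSCadult]#2 and iPSC[GSCadult]#1 had 7 members higher and 0 lower (1.13% of all genes) and gPSC[GSCneonatal]#1 and gPSC[GSCneonatal]#2 had 14 and 0 (5.05%). Interferon medians were -1.002, -0.48, -0.50 and -1.02 in the pair order gPSC neonatal, iPSC adult, iPSC neonatal and gPSC adult, opposite in sign to glycolysis. The split parted the gPSC neonatal and iPSC adult pairs and was chosen on these values. Nothing is therefore read from the direction or the member counts of those 2 pairs.

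**Figure D4:**
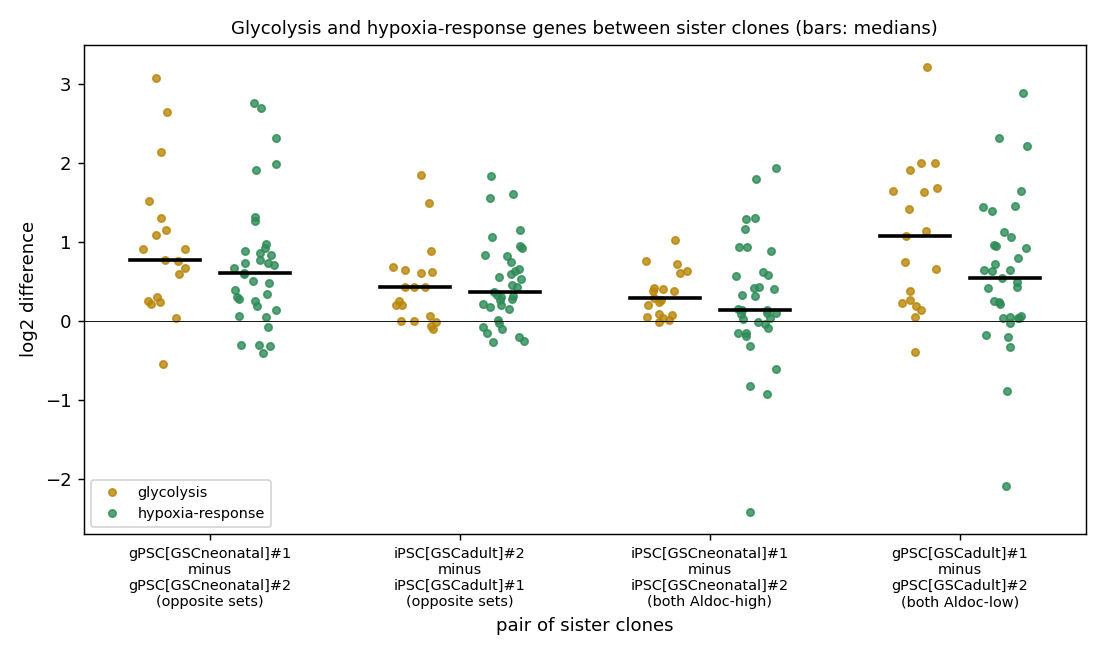
Log2 difference of the 19 glycolysis and 35 hypoxia-response genes between the 2 clones of each label group, where points are genes and bars medians. The glycolysis medians are 0.77, 0.43, 0.29 and 1.07 from left to right, and the largest belongs to a pair that lies within the Aldoc-low set.

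The split was chosen to cross both method and origin, so the make-up of the sets by label is given as a description, with no test. The Aldoc-high set held 3 of the 4 iPSC clones and 3 of the 4 neonatal clones, and the Aldoc-low set 1 of each.

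The same genes were examined in lines that did not enter the split. OG2 ESC and iPSC[MEF] are such pluripotent lines, although iPSC[MEF] had nearly the profile of the Aldoc-low clone gPSC[GSCneonatal]#2, so its likeness to that set is no independent test. The 2 lines were compared with limma, with 2 arrays each and the spread taken between arrays of a line. Aldoc was 9.37 in OG2 ESC and 7.12 in iPSC[MEF], a difference of 2.26 ± 0.11 (SE; limma adjusted p = 5.1e-12), and Aldoa was 12.77 and 11.90, a difference of 0.88 ± 0.09 (limma adjusted p = 1.8e-07). OG2 ESC thus had the higher aldolase level in both cases. Of 19 glycolysis genes 14 were called higher and 1 lower in OG2 ESC (limma adjusted p under 0.05), and of 35 hypoxia genes 20 and 1, against 22.9% and 21.3% of all genes. Vegfa was 9.14 and 7.96, a difference of 1.18 ± 0.09. Among 22 interferon genes 1 was called higher and 16 lower, among 14 primed genes 1 and 7, and among 19 trophoblast and epithelium genes 5 and 3.

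The separating genes were followed as a whole. Of the 1213 genes higher in Aldoc-high clones, 734 (60.5%) were called higher in OG2 ESC and 25 lower, against 22.9% called higher of all genes. Of the 1153 genes higher in Aldoc-low clones, 772 (66.96%) were called lower in OG2 ESC and 15 higher, against 21.3%. These shares were 58.4% and 64.7% when the genes were taken from 7 clones without gPSC[GSCneonatal]#2, which removes that clone from the choice of genes. The Aldoc-low clone iPSC[GSCadult]#1, the next closest to iPSC[MEF], stayed in that choice. With the line as a random block across 9 cell types, which sets the difference against the spread between sister lines, limma called 12 genes higher and 4 lower in all, and 0.0824% and 0.0867% of the separating genes. The differences of Aldoc and Aldoa were then not called (limma adjusted p = 0.694 and 0.851). The calls above therefore compare 2 lines, not 2 cell types. The 95th percentile of signal over background was 9.79 and 10.34 on the OG2 ESC arrays and 10.51 and 11.14 on the iPSC[MEF] arrays, the same order as between the sets, and its part was not tested.

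For the 21 glycolysis and hypoxia genes without overlap, OG2 ESC reached the Aldoc-high range for 10, lay between the sets for 7 and in the Aldoc-low range for 4. iPSC[MEF] lay in the Aldoc-low range for 19 and between the sets for 2. The mean glycolysis level was 9.93 in OG2 ESC and 9.33 in iPSC[MEF], and the mean hypoxia level 7.82 and 7.23. By correlation across genes, OG2 ESC was closest to iPSC[GSCneonatal]#2 (r = 0.985) and to gPSC[GSCadult]#1 (0.982), clones of different sets.

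**Figure D5:**
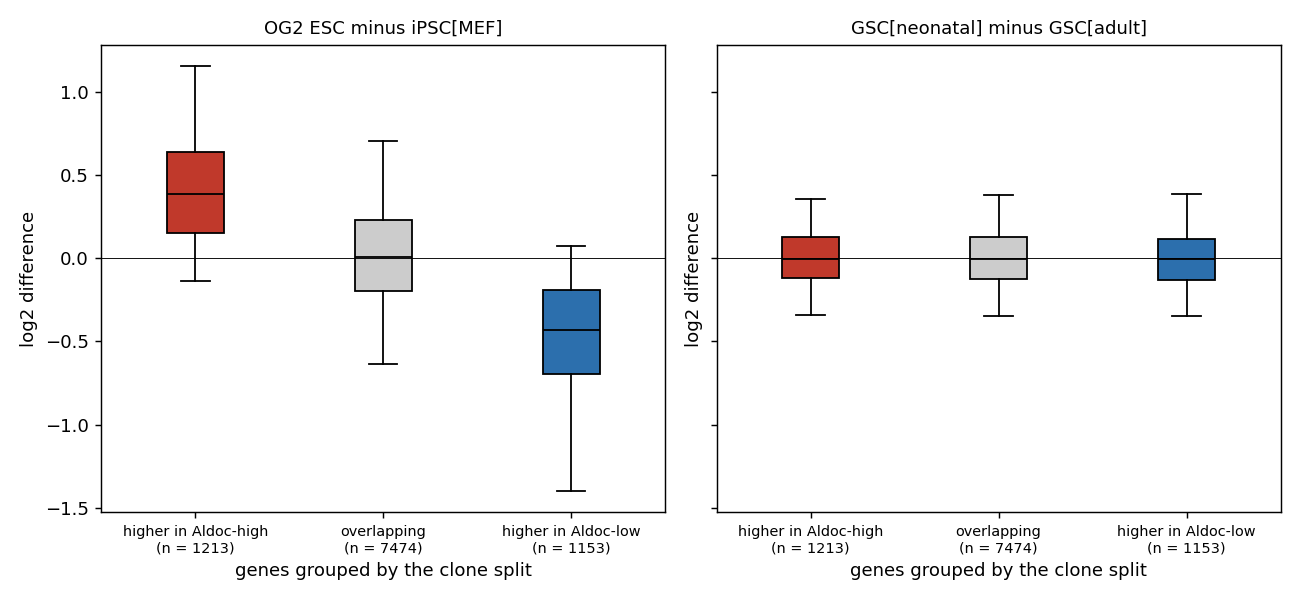
Log2 difference between OG2 ESC and iPSC[MEF] (left) and between GSC[neonatal] and GSC[adult] (right) for the 1213 genes higher in Aldoc-high clones, the 7474 overlapping genes and the 1153 genes higher in Aldoc-low clones. Boxes show quartiles and median, and whiskers the 5th and 95th percentiles. The left medians are 0.39 for the first class and -0.43 for the last, and the right medians lie close to 0 for both.

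In the parent lines the separating genes were called at about the share of all genes. Between GSC[neonatal] and GSC[adult], 6.02% of the genes higher in Aldoc-high clones were called higher and 5.98% of the genes higher in Aldoc-low clones were called lower (limma adjusted p under 0.05), against 5.93% and 5.27% of all genes. With 1 array of these lines left out in turn the shares were 3.13% to 4.53% and 2.69% to 4.51%, with 321 to 504 and 260 to 416 genes called in all. Aldoc was 8.72 and 8.69, a difference of 0.03 ± 0.11 (limma adjusted p = 0.918). Aldoa was 9.72 and 9.24, a difference of 0.47 ± 0.09 (limma adjusted p = 0.0018), a call that was lost with the line as a random block. Of 19 glycolysis genes 4 were called higher and 1 lower and of 35 hypoxia genes 3 and 3. The Aldoa level in both parent lines lay below every clone, and the Aldoc level of both was near 8.70, the highest Aldoc-low clone.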

How the data were processed

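RNA of 13 mouse lines was profiled on Illumina bead arrays, 2 arrays per line. For each of 25697 probes the deposited table gives an intensity value and, per the file headers, its detection p-value, exported from BeadStudio 3.2 per the submitters' processing notes, which also name RMA and lumi without role or order. The authors' deposited normalised matrix, read as log2 from its range, served as an alternative. Its steps are not given in the sources used here. The neqc function of limma 3.58.1 (statmod 1.5.0, R 4.3.3) corrected the background, added an offset of 16, normalised by quantiles and took log2. A probe stayed in when 2 or more arrays had a detection p below 0.01 (14517 probes), and the brightest such probe of a gene stood for it (9840 genes). Of all probes 23978 had 1 symbol and 1719 none or several, and symbols were updated through a GRCm38.p6 gene table.

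A clone is the mean of its 2 arrays. Sets are called not overlapping when all 4 clone means of one set lie above all 4 of the other. Array quality was compared by exact permutation over clones. A Fisher's exact test of the labels against the sets is not reported, because the split was chosen to cross the labels. For lines outside the split, limma was fitted to 26 arrays with 13 lines as groups and Benjamini-Hochberg adjustment over all genes. The p-values there measure only the spread between arrays of a line, which may be technical. The number of arrays limits the precision, and dim genes have compressed differences. The limma step was tested on simulated data.

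The clones and the 26 gene lists were chosen with earlier results of these data known. Named genes are Aldoc and Aldoa, the 15 largest differences without overlap in each direction, every glycolysis and hypoxia gene without overlap, up to 4 from each other list, and Pou5f1, Nanog, Sox2 and Klf4. Fixed cell type markers and overlapping glycolysis and hypoxia genes were added to these. Arrays with the same number deviated together (r = 0.357 between OG2 ESC and iPSC[MEF] and 0.41 between the GSC lines), each from 1 pair of lines. Promoter windows were searched in the RefSeq table of GRCm38.p6.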

Additional observations from a re-analysis of the deposited data

Results flagged for a closer look

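Of 296 values examined in sets of 4 clones, 15 had a clone whose gap to the nearest of the others, relative to the whole range of its set, exceeded Dixon's 95% critical value. Chance flags about 1 in 20. In iPSC[GSCneonatal]#1 these were Plod2 at 9.74, Higd1a at 5.27, Selenbp2 at 4.88, Stard4 at 9.70, Pramel13, a germline and early embryo gene, at 8.69 and Tex101, a germ cell surface protein, at 7.34. Each lay above the other 3 Aldoc-high clones, and Tex101 was 4.69 to 4.85 in those. Sdhc was high in gPSC[GSCneonatal]#1 at 10.99 and Hmgcs1 in iPSC[GSCneonatal]#2 at 12.85. In iPSC[GSCadult]#2, Rps15 was low at 11.94, as were the mean levels of the p53 list at 8.36 and of the testis somatic list at 6.34. Among Aldoc-low clones Tle6 was high in iPSC[GSCadult]#1 at 7.58 and Sp5 in gPSC[GSCneonatal]#2 at 8.18, while Ccne1 was low in gPSC[GSCadult]#1 at 8.72. The mean level of serine, threonine and one-carbon metabolism was low in gPSC[GSCadult]#2 at 8.51, against 8.88 to 8.92 in the other 3.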

How the results depend on the processing

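Across changes of background correction, normalised matrix, probe filter, probe summary and covariates, and with clones or arrays left out, list medians changed sign in 2 of 442 comparisons (the cell cycle at 0.08 without iPSC[GSCneonatal]#1 and testis somatic cells at 0.01 on second arrays alone). Differences of named genes did so in 4 of 2071, all for Pou5f1. The glycolysis and hypoxia medians were above 0 in every one of these settings, the hypoxia median being 0.28 without background correction. The cause of the changes was not tested. The number of genes limma called between the sets was 0 with method and origin as covariates and 387 with iPSC[GSCneonatal]#1 and gPSC[GSCadult]#2 left out together, a setting chosen after seeing the data. So was the choice of separating genes without gPSC[GSCneonatal]#2 in OG2 ESC minus iPSC[MEF]. With 1 clone, or 1 array of every clone, left out, the number ranged from 91 to 1851, genes higher without overlap from 1080 to 1848 and hypoxia genes among them from 9 to 19. With the line as a random block, OG2 ESC minus iPSC[MEF] gave 12 higher and 4 lower calls and 0.0824% and 0.0867% of the separating genes. GSC[neonatal] minus GSC[adult] gave 0 higher and 1 lower calls and 0% and 0% of the separating genes. In the GSC contrast the authors' matrix gave 3.69% of Aldoc-low genes called lower. With 1 array left out it gave 321 to 504 higher and 260 to 416 lower calls and 3.13% to 4.53% and 2.69% to 4.51% of the separating genes, where the lone array is assumed to vary like those of other lines. Its Aldoc difference was -0.02 without the first GSC[adult] array. In array quality the difference of the median over background ranged from -0.0138 (without iPSC[GSCadult]#1, exact permutation p = 0.0286) to -0.00522. That of the 95th percentile ranged from -0.914 to -0.576 (first arrays alone, exact permutation p = 0.114), with an exact permutation p of 0.0571 without any 1 Aldoc-high clone. With the replicate number as a block (replicate block), OG2 ESC minus iPSC[MEF] gave 2304 higher and 2121 lower calls and 61.1% and 67.5% of the separating genes, and the GSC contrast 612 and 535. This block changed no call of Aldoc or Aldoa. Batches of arrays were not examined, because the files used here name none. The precision is limited by signal over background for dim genes such as Higd1a and Selenbp2, which no Aldoc-low array detected.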
